A study of Homo sapiens with 18 samples.

Results

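Ribosome biogenesis was followed through a list of 38 genes. They encode the transcription factor MYC, 3 subunits of RNA polymerase I and 34 proteins that process ribosomal RNA or assemble the ribosomal subunits. Most of these act in the nucleolus. The genes were taken by name from the probe annotation of the arrays, and a gene was kept if a probe for it exceeded background on 3 or more arrays. Of the 38 genes, 36 had a probe under their name and all 36 were kept, out of 12547 genes tested. No probe is named for WDR43 or GNL3. The cells were SKBR3, an established human breast cancer line with an amplified ERBB2 gene. Lapatinib is a kinase inhibitor directed at ERBB2 and EGFR. There were 6 groups with 3 arrays each: the resistant line SKBR3-R under basal conditions, with 0.1 µM and with 1 µM lapatinib, and the parental line SKBR3 under basal conditions, with 0.1 µM and with 1 µM lapatinib. The labels give neither the time of exposure, nor how the resistant line was made, nor whether the 3 arrays of a group came from separate cultures. The spread behind each p-value is thus the spread of these arrays alone and may be technical.

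The nucleolus forms around the ribosomal RNA genes. RNA polymerase I transcribes them into a long precursor, which small nucleolar ribonucleoproteins (snoRNPs) modify: box C/D particles guide methylation, and box H/ACA particles guide the conversion of uridine to pseudouridine. The small subunit processome folds and cuts the end of the precursor that becomes 18S rRNA, and further sets of assembly factors build the large subunit around 5.8S and 28S rRNA. MYC is known as an activator of many of these genes, which it reaches through E-boxes, short DNA elements bound by MYC together with MAX, and ribosome production is known to follow growth factor signalling in proliferating cells.

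The 8 markers fixed for SKBR3 (ERBB2, GRB7, STARD3, EPCAM and 4 luminal keratins) were above background on all 18 arrays. Of 11 markers of other cell types with a probe, COL1A2, COL3A1, LUM and PTPRC were above background on 0 arrays. CD3E was above it on 2, DCN on 3 and COL1A1 on 11, and CD68, PECAM1, VWF and CDH5 on 18. CD68, with raw signals of 825 to 1440, was the brightest of these 11 markers. Their summed signal ran from 1739 to 2331 in the resistant groups and from 1838 to 2570 in the parental groups. Among them VWF was called higher with the drug in both lines, by 0.62 ± 0.12 at 0.1 µM and 0.87 ± 0.12 at 1 µM in the resistant line (log2, adjusted p = 0.00103 and 2.66e-06) and by 0.37 ± 0.12 and 0.46 ± 0.12 in the parental line (adjusted p = 0.0395 and 0.00380), with raw signals of 106 to 196 over all arrays. EPCAM, an epithelial marker, was called lower at 1 µM, by 0.34 ± 0.11 in the resistant line and 0.37 ± 0.11 in the parental line. GRB7 and ERBB2 were called higher at 1 µM in the parental line, by 1.66 ± 0.14 and 0.29 ± 0.11 (limma adjusted p = 4.40e-10 and 0.0477). The other SKBR3 markers were not called there. In the resistant line GRB7 was higher at 1 µM than at 0.1 µM by 0.65 ± 0.14 (adjusted p = 0.0034). The part of these marker changes in the results was not tested. Mean signal per array before normalization was lower in the resistant line than in the parental line, at 481 ± 40.5, 425 ± 8.16 and 438 ± 8.75 against 646 ± 25.9, 533 ± 21.2 and 505 ± 25.0 under basal conditions, 0.1 µM and 1 µM (SD, n = 3). Values below are log2 intensities after background correction and quantile normalization, which gives all arrays the same distribution, so a change is relative to the other genes and says nothing of total RNA per cell. The background level estimated on each array also differed by group. It was 84.54 to 93.57 on parental basal, 77.12 to 77.39 on parental 1 µM, 75.04 to 75.90 on resistant basal and 70.45 to 72.62 on resistant 1 µM arrays. A different number of cells, a different amount of RNA per cell and a difference between the arrays themselves cannot be told apart here. The part of the background level in the results was not tested.

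Averaged over the 35 genes without MYC, the signal ran downward with dose in both lines. In the resistant line this mean log2 intensity lay at 9.94 to 10.003 on the basal arrays, at 9.80 to 9.85 with 0.1 µM and at 9.64 to 9.69 with 1 µM. Parental arrays lay at 10.11 to 10.14 on the basal arrays, at 9.92 to 9.94 with 0.1 µM and at 9.78 to 9.82 with 1 µM. The 3 groups of each line did not overlap, and at each treatment all 3 resistant arrays lay under all 3 parental arrays. Resistant arrays with 0.1 µM and parental arrays with 1 µM overlapped. Over the same arrays the median of all genes stayed between 7.92 and 7.95, which quantile normalization largely fixes in advance.

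**Figure D1:**
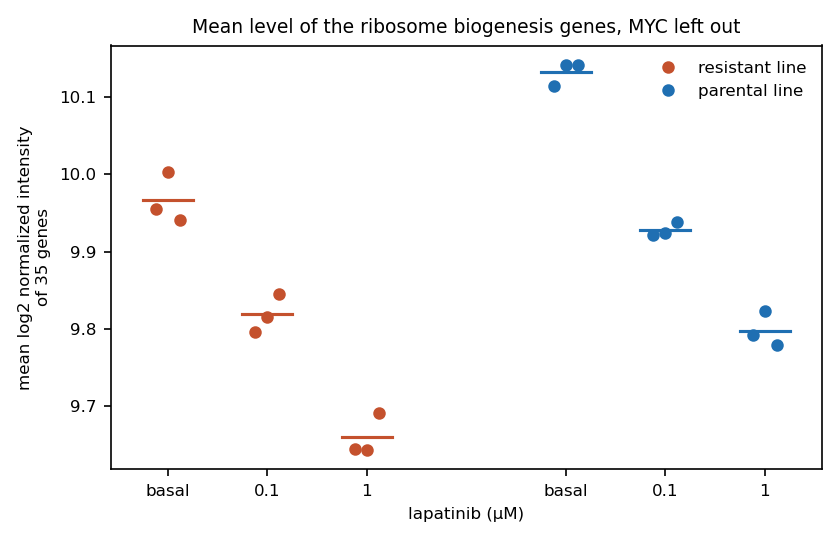
Mean log2 normalized intensity of the 35 genes other than MYC on each array (points) with the group mean (bar), by lapatinib dose, resistant line at left and parental line at right. Each line steps down with dose, and the resistant line at 1 µM is lowest, at 9.64 to 9.69.

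The first comparison asked what 1 µM lapatinib changed. In the resistant line 23 of the 36 genes fell and 1 rose against basal, with a median log2 change of -0.34; of all genes 12.1% fell and 10.9% rose, with a median of 0.00. In the parental line 20 fell and 1 rose, with a median of -0.36; of all genes 13.6% fell and 14.3% rose, with a median of 0.01. The changes were small: the largest fall, that of LYAR, was 1.66-fold in the resistant line and 1.73-fold in the parental line. Of the genes that fell, 18 fell in both lines, which is 78.3% of the resistant list and 90.0% of the parental list. Among all genes called lower, 998 were shared, which is 65.5% of the 1523 resistant and 58.4% of the 1710 parental calls. A shared percentage also rises with the share of genes called. That share was larger among the 36 genes, at 63.9% in the resistant and 55.6% in the parental line. The percentages thus do not show that the 36 genes were more alike between the lines than other genes. Calls here and below have an adjusted p under 0.05 in a limma fit over all arrays, with Benjamini-Hochberg adjustment over all genes, and single changes are given as log2 change ± SE with n = 3 arrays against 3. Scaling each array by its median in place of quantile normalization shifted the median of all genes by -0.06 in the resistant line and -0.14 in the parental line. Under that scaling 24 of the 36 genes fell and 1 rose in the resistant line, where 14.8% of all genes fell and 6.0% rose, and 29 fell and 0 rose in the parental line, where 28.5% fell and 6.1% rose. Relative to the median of all genes the median of the 36 was then -0.42 in the resistant line and -0.51 in the parental line. The 36 genes are on average brighter than the median gene. Subtracting the median of all genes need not remove a shift that depends on brightness, so these values do not show a stronger fall. The part of brightness was not tested. Without single arrays, 15 to 20 genes fell in the resistant line (15 without the array of replicate 2 at 1 µM) and 17 to 18 in the parental line.

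**Figure D2:**
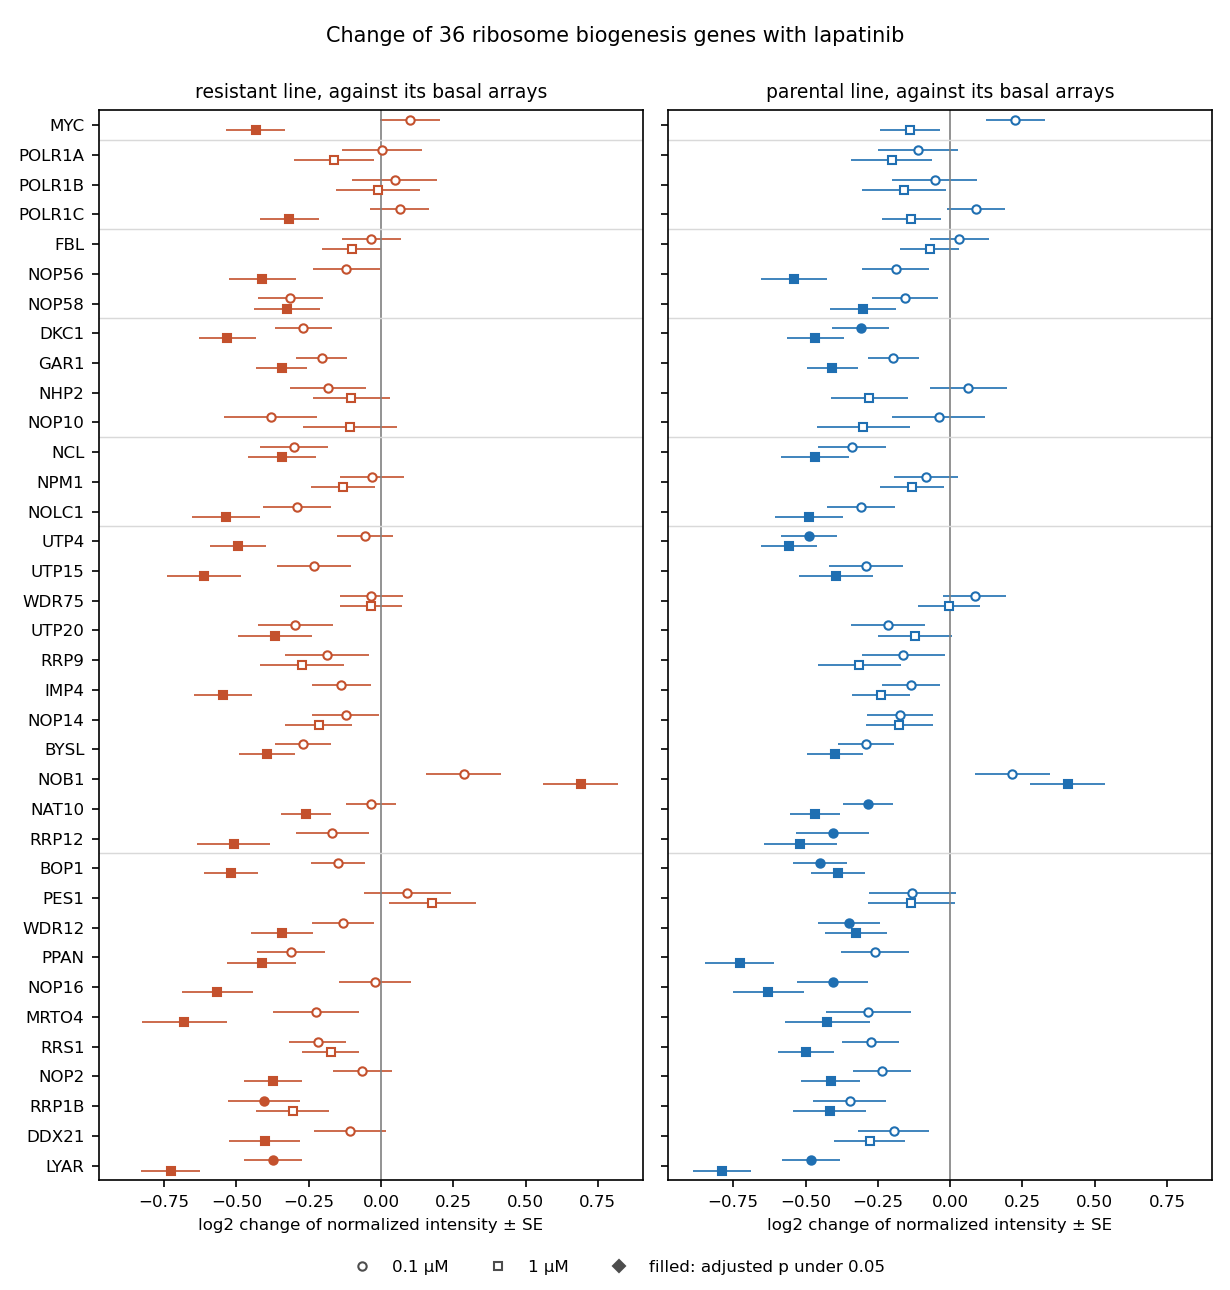
Log2 change ± SE of each of the 36 genes at 0.1 µM (circles) and 1 µM (squares) against basal, in the resistant line (left) and the parental line (right), with lines between functional groups; filled symbols have an adjusted p under 0.05. Most squares lie left of 0 in both lines, and NOB1 is the gene called to the right.

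Of the 11 large subunit genes tested, 8 fell in the resistant line and 9 in the parental line at 1 µM, and 0 rose in either. LYAR, a nucleolar zinc finger protein of pre-rRNA processing, fell furthest in both lines. Its log2 intensities on the resistant arrays were 9.59, 9.81 and 9.55 under basal conditions, 9.15, 9.25 and 9.43 with 0.1 µM, and 8.83, 8.91 and 9.03 with 1 µM. On the parental arrays they were 10.14, 9.96 and 9.96 under basal conditions, 9.57, 9.53 and 9.51 with 0.1 µM, and 9.21, 9.17 and 9.32 with 1 µM. No group of a line overlapped with another of that line. The change at 1 µM was -0.73 ± 0.10 in the resistant line (adjusted p = 3.96e-06) and -0.79 ± 0.10 in the parental line (adjusted p = 8.21e-07). The other LYAR probe gave -0.89 in the resistant line and -0.80 in the parental line.

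PPAN, which acts in maturation of the large subunit precursor, had 8.604, 8.25 and 8.16 on the resistant arrays with 1 µM, against 8.81, 8.63 and 8.81 on the basal ones. On the parental arrays it had 8.32, 8.41 and 8.26 with 1 µM, against 8.86, 9.20 and 9.11 under basal conditions. The 1 µM arrays lay below the basal arrays in both lines, by -0.41 ± 0.12 in the resistant line (adjusted p = 0.0109) and by -0.73 ± 0.12 in the parental line (adjusted p = 2.51e-05). The resistant call ended without the 1 µM array of replicate 3 (-0.32, adjusted p = 0.0815) and without that of replicate 2. NOP16, another factor of large subunit assembly, had 9.02, 9.41 and 9.49 with 1 µM against 9.74, 9.86 and 10.03 under basal conditions in the resistant line. Parental arrays gave NOP16 9.41, 9.64 and 9.54 with 1 µM against 10.08, 10.12 and 10.27 under basal conditions. It fell by 0.57 ± 0.12 in the resistant line (log2, adjusted p = 0.00111) and by 0.63 ± 0.12 in the parental line (adjusted p = 2.81e-04).

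MRTO4, which holds a place on the large subunit precursor that a protein of the ribosomal stalk later takes, had 8.66, 9.03 and 8.82 with 1 µM on the resistant arrays, against 9.18, 9.71 and 9.65 under basal conditions. On the parental arrays it had 9.09, 9.32 and 9.12 with 1 µM, against 9.25, 9.71 and 9.83 under basal conditions. The resistant groups did not overlap, while the lowest parental basal array lay within the range of the treated ones. The change was -0.68 ± 0.15 in the resistant line (adjusted p = 9.90e-04) and -0.43 ± 0.15 in the parental line (adjusted p = 0.0308), where the call ended without any of 4 arrays, with the highest adjusted p (0.186, -0.31) without the basal array of replicate 3.

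The PeBoW complex, which is needed for processing of the large subunit rRNAs, was split. BOP1 fell by 0.52 ± 0.09 in the resistant line and by 0.39 ± 0.09 in the parental line, and WDR12 by 0.34 ± 0.11 and 0.33 ± 0.11; the WDR12 call ended without any of 3 arrays in each line (adjusted p up to 0.100 in the resistant and 0.0946 in the parental line). PES1, the third subunit, changed by 0.18 ± 0.15 in the resistant line (adjusted p = 0.462) and by -0.13 ± 0.15 in the parental line (adjusted p = 0.575). NOP2, a methyltransferase of 28S rRNA, fell by 0.37 ± 0.10 in the resistant line and 0.41 ± 0.10 in the parental line at its brightest probe, whereas its other 2 probes gave -0.16 and 0.12 in the resistant line and 0.19 and -0.47 in the parental line, none of them called. RRS1, which helps to bring 5S rRNA into the large subunit, was called in the parental line (-0.50 ± 0.10) and had -0.17 ± 0.10 in the resistant line (adjusted p = 0.219). RRP1B, a homologue of the yeast factor Rrp1, was also called in the parental line (-0.42 ± 0.13) and had -0.31 ± 0.13 in the resistant line (adjusted p = 0.0810). The helicase DDX21 was called in the resistant line (-0.40 ± 0.12) and had -0.28 ± 0.12 in the parental line (adjusted p = 0.0985). The differences between the lines' changes, resistant minus parental, were 0.32 ± 0.14 for RRS1, 0.11 ± 0.18 for RRP1B and -0.12 ± 0.18 for DDX21, none of them called. The RRP1B call ended without any of 2 arrays (adjusted p up to 0.0999) and that of DDX21 without any of 4 (up to 0.0824).

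Among the 11 genes of the small subunit, 7 fell and 1 rose in the resistant line, and 5 fell and 1 rose in the parental line at 1 µM. UTP4 and UTP15 belong to the part of the processome that binds the precursor first. UTP15 had 7.21, 7.38 and 7.43 with 1 µM on the resistant arrays, against 7.96, 7.99 and 7.91 under basal conditions. For UTP15 the parental arrays had 7.41, 7.54 and 7.66 with 1 µM against 8.12, 7.68 and 7.998 under basal conditions. The 1 µM arrays were below the basal ones in both lines, by -0.61 ± 0.13 in the resistant line (adjusted p = 7.13e-04) and by -0.39 ± 0.13 in the parental line (adjusted p = 0.0210), and the parental call ended without any of 4 arrays (adjusted p up to 0.125, -0.30, without the basal array of replicate 1). UTP4 fell by 0.49 ± 0.10 in the resistant line and by 0.56 ± 0.10 in the parental line. WDR75, from the same part of the processome, had changes of -0.03 ± 0.11 in the resistant line and -0.0042 ± 0.11 in the parental line (adjusted p = 0.873 and 0.983).

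RRP12, a factor of small subunit export, fell by 0.51 ± 0.13 in the resistant line and 0.52 ± 0.13 in the parental line. BYSL, which stays with the small subunit precursor until late steps, fell by 0.39 ± 0.10 in the resistant line and 0.40 ± 0.10 in the parental line. NAT10, which acetylates cytidines of 18S rRNA, fell by 0.26 ± 0.09 in the resistant line and 0.47 ± 0.09 in the parental line, and the resistant call ended without any of 4 arrays (adjusted p up to 0.109). IMP4, a protein bound to the U3 snoRNP, fell by 0.55 ± 0.10 in the resistant line and had -0.24 ± 0.10 in the parental line (adjusted p = 0.0796). UTP20, a scaffold protein, was called in the resistant line (-0.37 ± 0.13), but its probe was above background on 3 of 3 basal and 2 of 3 treated arrays there, and the call ended without any of 3 arrays (adjusted p up to 0.229, -0.25, without the 1 µM array of replicate 2). RRP9, a U3 protein, and NOP14 were not called in either line, with -0.27 and -0.22 in the resistant line and -0.31 and -0.18 in the parental line.

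NOB1, the endonuclease that makes the last cut to mature 18S rRNA in the cytoplasm, went the other way. On the resistant arrays it had 8.09, 7.66 and 7.72 under basal conditions, 8.10, 8.03 and 8.21 with 0.1 µM, and 8.55, 8.43 and 8.56 with 1 µM. On the parental arrays it had 7.94, 8.03 and 7.92 under basal conditions, 7.86, 8.24 and 8.43 with 0.1 µM, and 8.33, 8.30 and 8.48 with 1 µM. Every array with 1 µM lay above every basal array of its line. NOB1 rose by 0.69 ± 0.13 in the resistant line (1.61-fold, adjusted p = 2.17e-04) and by 0.41 ± 0.13 in the parental line (1.33-fold, adjusted p = 0.0192). The parental call ended under median scaling of the arrays (0.19, adjusted p = 0.344) and without any of 3 arrays (adjusted p up to 0.0867, 0.35, without the 1 µM array of replicate 3).

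Of the core proteins of box C/D particles, NOP56 fell by 0.41 ± 0.12 in the resistant line and 0.54 ± 0.12 in the parental line, with its other 2 probes at -0.43 and -0.53 in the resistant line and -0.72 and -0.85 in the parental line. The resistant call for NOP56 ended without any of 3 arrays (adjusted p up to 0.0679). NOP58 fell by 0.33 ± 0.11 in the resistant line and 0.30 ± 0.11 in the parental line, a call that ended without any of 5 arrays in each line. FBL, the methyltransferase of the same particle, had -0.10 ± 0.10 in the resistant line and -0.07 ± 0.10 in the parental line (adjusted p = 0.546 and 0.679). In box H/ACA particles the pseudouridine synthase DKC1 fell by 0.53 ± 0.10 in the resistant line and 0.47 ± 0.10 in the parental line, and its partner GAR1 by 0.34 ± 0.09 and 0.41 ± 0.09. NHP2 had -0.10 ± 0.13 in the resistant line and -0.28 ± 0.13 in the parental line, and NOP10 had -0.11 ± 0.16 and -0.30 ± 0.16, none of which was called.

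NOLC1, a chaperone of snoRNPs, fell by 0.54 ± 0.12 in the resistant line and 0.49 ± 0.12 in the parental line. NCL, nucleolin, an abundant nucleolar RNA-binding protein, fell by 0.34 ± 0.12 in the resistant line and 0.47 ± 0.12 in the parental line. The resistant call for NCL ended without any of 4 arrays, with the highest adjusted p (0.203, -0.25) without the 1 µM array of replicate 1. NPM1, nucleophosmin, was read by 1 probe that exceeded background on only 1 of 9 resistant and 5 of 9 parental arrays, and it had -0.13 ± 0.11 in each line.

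Of the 3 subunits of RNA polymerase I, 1 fell in the resistant line and 0 in the parental line. POLR1C, a subunit shared with RNA polymerase III, fell by 0.32 ± 0.10 in the resistant line (adjusted p = 0.0234), a call that ended without any of 4 arrays (adjusted p up to 0.104, -0.27, without the 1 µM array of replicate 1), and had -0.13 ± 0.10 in the parental line (adjusted p = 0.370). Its other probe gave -0.44 in the resistant line and -0.38 in the parental line, both called in a fit over all probes (adjusted p = 0.00359 and 0.00852). POLR1B, a catalytic subunit, had -0.01 ± 0.15 in the resistant line and -0.16 ± 0.15 in the parental line. The largest subunit, POLR1A, was above background on 0 of the 1 µM arrays of either line and on 1 of 3 resistant and 2 of 3 parental basal arrays, and was not called. Of 13 further genes of polymerase I and its start factors, 0 fell and 2 rose in the resistant line, where 12.1% of all genes fell and 10.9% rose. In the parental line 1 fell and 1 rose, where 13.6% of all genes fell and 14.3% rose.

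The promoters were examined for the E-box CACGTG, the only motif searched, which reads the same on both strands. RefSeq promoter windows on GRCh38.p14, from 250 bases before to 50 after a transcript start, matched 31 of the 38 genes, and not MYC, RRS1, BOP1, NOP58, RRP12, RRP1B or NOLC1. The motif stood in a window of 17 of the 31 genes (54.8%), against 34 of 124 other ribosome assembly genes (27.4%), 12.4% of the 10151 genes tested that had a window and 8.77% of all 27305 genes with one. Counted by window it was 17 of 39 (43.6%), against 7.26% of all 35116 windows. Of its 19 occurrences 17 lay within 100 bases of the start. The stretches shown run from 100 bases before to 30 after the start, 5′ to 3′ on the gene's strand, with the motif in capitals, for 4 genes that fell in both lines and hold it and, for contrast, for NOP16, which fell in both lines without it, and NOB1, which rose.
LYAR (chr4:4289992-4290121, minus strand): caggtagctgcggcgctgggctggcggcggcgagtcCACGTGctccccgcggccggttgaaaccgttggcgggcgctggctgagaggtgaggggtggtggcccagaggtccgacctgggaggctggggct
UTP4 (chr16:69132549-69132678, plus strand): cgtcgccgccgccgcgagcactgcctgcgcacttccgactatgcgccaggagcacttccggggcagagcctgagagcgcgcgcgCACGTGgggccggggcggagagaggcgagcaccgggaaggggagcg
NAT10 (chr11:34105529-34105658, plus strand): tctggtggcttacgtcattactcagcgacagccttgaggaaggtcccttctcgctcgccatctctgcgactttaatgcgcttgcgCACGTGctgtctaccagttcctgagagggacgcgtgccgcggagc
MRTO4 (chr1:19251705-19251834, plus strand): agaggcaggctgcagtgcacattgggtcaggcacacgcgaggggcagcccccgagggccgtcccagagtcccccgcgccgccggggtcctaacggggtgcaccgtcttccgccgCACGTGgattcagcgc
NOP16 (chr5:176388569-176388698, minus strand): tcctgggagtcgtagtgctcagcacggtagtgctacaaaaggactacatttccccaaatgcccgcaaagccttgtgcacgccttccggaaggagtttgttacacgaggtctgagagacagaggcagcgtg
NOB1 (chr16:69754897-69755026, minus strand): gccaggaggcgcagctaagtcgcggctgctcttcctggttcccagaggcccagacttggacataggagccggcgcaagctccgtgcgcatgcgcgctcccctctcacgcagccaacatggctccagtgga

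The motif starts 64 bases before the start in LYAR, 16 in UTP4 and 15 in NAT10, and at base 15 of the transcript in MRTO4. LYAR has a further RefSeq start, whose window does not hold these letters and is not shown. At 1 µM 10 of the 15 tested genes with the motif fell in the resistant line, against 8 of the 14 without it, with medians of -0.37 and -0.33. In the parental line 7 of 15 with it fell, against 7 of 14 without it, with medians of -0.31 and -0.30. FBL, PES1, NOP14, RRP9 and NOP10 hold it within 20 bases of the start and were not called in either line. A match is a run of letters, not a measured binding site, and the arrays say nothing of binding.

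**Figure D3:**
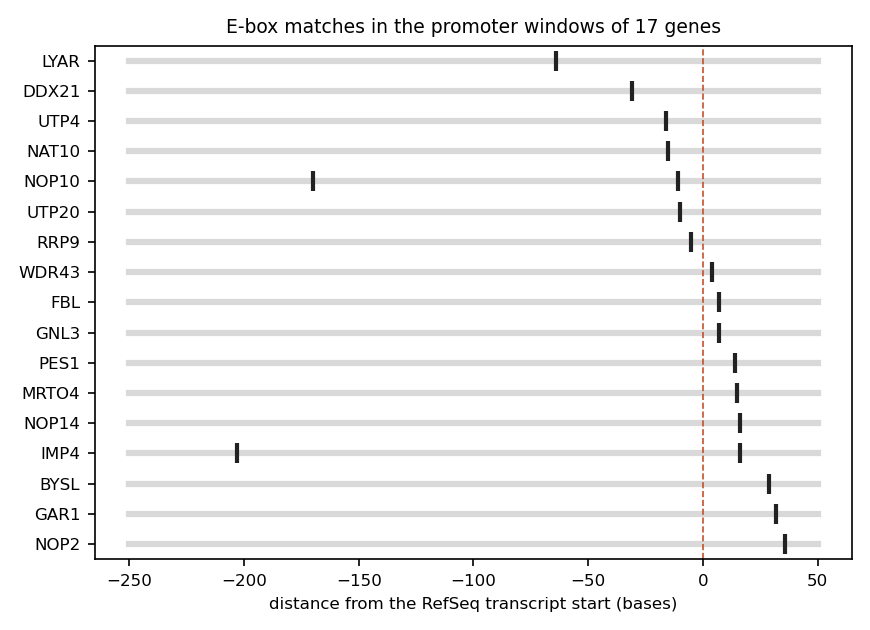
Position of the E-box letters (ticks) in the promoter windows (grey bars) of the 17 genes that hold them, as distance in bases from the RefSeq transcript start (dashed line). Of 19 occurrences 17 lie within 100 bases of the start, and IMP4 and NOP10 have a further one upstream.

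At 0.1 µM fewer genes passed the test. In the resistant line 2 fell and 0 rose, with a median of -0.14, where 3.3% of all genes fell and 4.02% rose. In the parental line 8 fell and 0 rose, with a median of -0.21, where 5.34% of all genes fell and 5.93% rose. At an unadjusted p under 0.05 the counts were 12 lower and 1 higher in the resistant line and 17 lower and 1 higher in the parental line, where 9.75% of all genes were lower and 10.6% higher in the resistant line and 12% lower and 12.3% higher in the parental line. Median scaling shifted the median of all genes by -0.08 and -0.17 and gave 10 falls in the resistant line, where 7.06% of all genes fell and 1.25% rose, and 24 in the parental line, where 27.1% fell and 1.92% rose.

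The 2 resistant calls were RRP1B and LYAR. RRP1B had 7.44, 7.29 and 7.41 with 0.1 µM against 7.69, 8.05 and 7.61 under basal conditions (-0.40 ± 0.13, adjusted p = 0.0477), and the LYAR change was -0.37 ± 0.10 (adjusted p = 0.0222). The groups did not overlap, but the calls ended without any of 5 arrays for RRP1B and any of 3 for LYAR, most so without the basal array of replicate 2 (-0.27, adjusted p = 0.262, and -0.29, adjusted p = 0.129), and when only the groups compared were fitted (adjusted p = 0.184 and 0.167). Parental UTP4 had 10.60, 10.72 and 10.62 with 0.1 µM against 11.05, 11.10 and 11.25 under basal conditions, a fall of 0.49 ± 0.10 (log2, adjusted p = 9.77e-04). BOP1 had 11.85, 11.84 and 11.90 with 0.1 µM against 12.23, 12.38 and 12.33 under basal conditions, a fall of 0.45 ± 0.09 (adjusted p = 0.00141). The LYAR change there was -0.48 ± 0.10 (adjusted p = 0.00175). These 3 parental calls held without each array in turn, whereas those of DKC1, NAT10, RRP12, WDR12 and NOP16 (-0.28 to -0.41) each ended without at least 4 of the 6 arrays, with adjusted p up to 0.208 for DKC1 without the 0.1 µM array of replicate 3.

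Set against 0.1 µM, 1 µM gave 7 further falls and 0 rises in the resistant line, with a median of -0.15, where 3.62% of all genes fell and 2.06% rose. NOP16 had 9.02, 9.41 and 9.49 with 1 µM against 9.93, 9.999 and 9.63 with 0.1 µM (-0.55 ± 0.12, adjusted p = 0.00686, and 0.0817 without the 1 µM array of replicate 1). UTP4 had 10.41, 10.29 and 10.35 with 1 µM against 10.63, 10.79 and 10.95 with 0.1 µM (-0.44 ± 0.10, adjusted p = 0.00547). When only these groups were fitted, both calls ended (adjusted p = 0.0720 for NOP16 and 0.0763 for UTP4), and 1 of the 7, MYC, was called. Both pairs of groups were apart. The other resistant calls were MYC, IMP4, POLR1C, BOP1 and LYAR. Of these, IMP4, POLR1C, BOP1 and LYAR (-0.35 to -0.41) ended without at least 1 array. The count of 7 fell to 2 under median scaling, which leaves MYC and NOP16. The share of all genes called under median scaling, or with only these groups fitted, is not given here. The lower counts are thus not read as a result about the 36 genes. In the parental line 2 fell and 0 rose, with a median of -0.12, where 2.42% of all genes fell and 3.09% rose. They were PPAN, with 8.32, 8.41 and 8.26 with 1 µM against 8.89, 8.71 and 8.79 with 0.1 µM (-0.47 ± 0.12, adjusted p = 0.0178), and MYC. The PPAN call ended without any of 3 arrays, with adjusted p up to 0.0846 without the 0.1 µM array of replicate 1, and under median scaling (0.0733). Group means were in falling order from basal over 0.1 µM to 1 µM for 26 of the 36 genes in the resistant line, for 27 in the parental line and for 21 in both. This order was not counted over all genes, so the counts do not show how far the 36 genes differ from them.

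**Figure D4:**
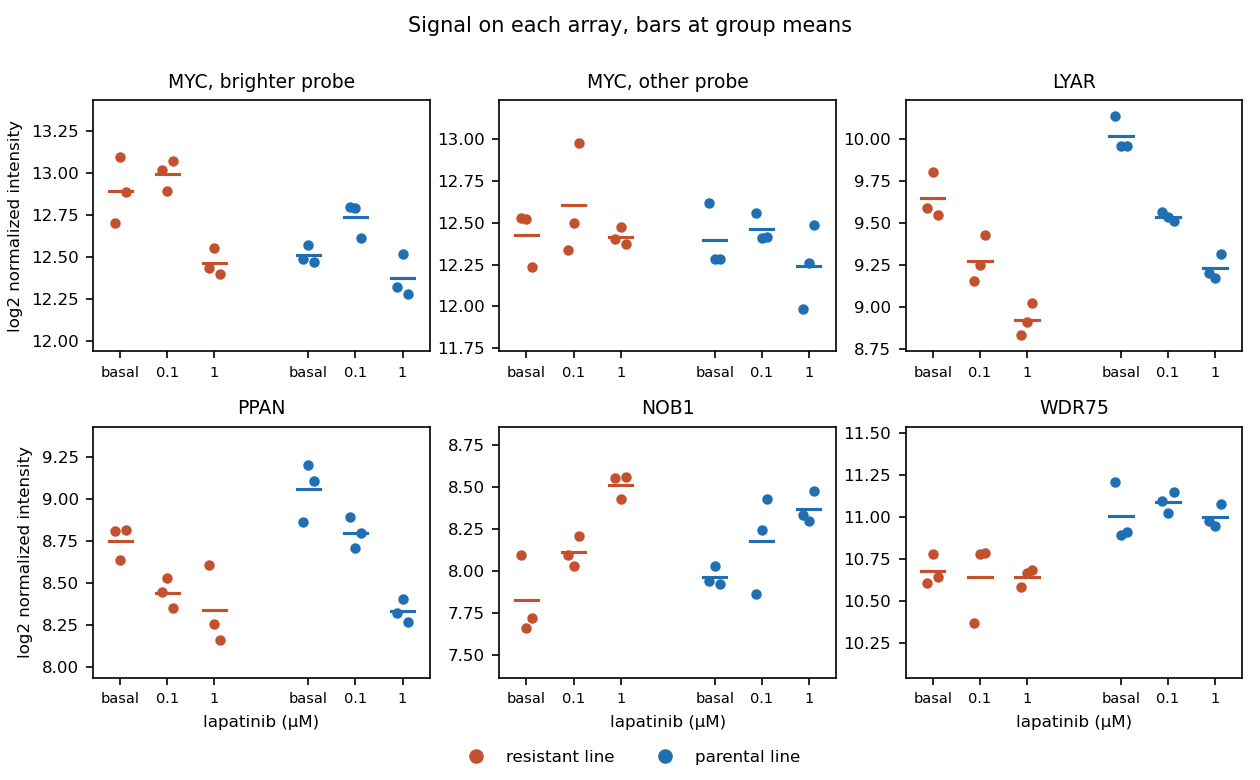
Log2 normalized intensity on each array (points) with group means (bars), by lapatinib dose, resistant line at left and parental line at right of each panel, for both MYC probes, LYAR, PPAN, NOB1 and WDR75; every panel spans the same log2 range. LYAR steps down with dose in both lines, NOB1 steps up, WDR75 stays level within a line and lies lower in the resistant line, and the 2 MYC probes differ.

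MYC was read by 2 probes above background on all 18 arrays, which did not give the same picture. The brighter one had 12.70, 13.10 and 12.89 on the resistant basal arrays, 13.02, 12.89 and 13.07 with 0.1 µM, and 12.44, 12.55 and 12.40 with 1 µM. On the parental arrays it had 12.49, 12.57 and 12.47 under basal conditions, 12.80, 12.79 and 12.61 with 0.1 µM, and 12.32, 12.52 and 12.28 with 1 µM. In both lines 0.1 µM was highest and 1 µM lowest. By this probe MYC fell at 1 µM against basal in the resistant line (-0.43 ± 0.10, adjusted p = 0.00241) and had -0.14 ± 0.10 in the parental line (adjusted p = 0.360). Against 0.1 µM it fell by 0.53 ± 0.10 in the resistant line (adjusted p = 0.00147) and by 0.36 ± 0.10 in the parental line (adjusted p = 0.0346, and up to 0.156 without the 1 µM array of replicate 3). Between the lines at basal it was higher in the resistant line by 0.38 ± 0.10 (adjusted p = 0.0103), which became 0.0052 (adjusted p = 0.9802) under median scaling and 0.28 (adjusted p = 0.0885) without the resistant basal array of replicate 2.

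The other MYC probe had 12.53, 12.52 and 12.23 on the resistant basal arrays, 12.34, 12.50 and 12.98 with 0.1 µM, and 12.40, 12.47 and 12.38 with 1 µM. Parental values of this probe were 12.62, 12.28 and 12.28 under basal conditions, 12.56, 12.41 and 12.41 with 0.1 µM, and 11.99, 12.26 and 12.48 with 1 µM. All its groups overlapped. It gave -0.01 at 1 µM against basal in the resistant line (adjusted p = 0.976), -0.15 in the parental line (adjusted p = 0.522) and 0.03 between the lines at basal (adjusted p = 0.928). Each MYC call was made at the brighter probe alone.

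Of 17 further genes of the MYC network tested, 2 fell and 3 rose in the resistant line at 1 µM, and 1 fell and 4 rose in the parental line. Of all genes 12.1% fell and 10.9% rose in the resistant line, and 13.6% fell and 14.3% rose in the parental line. MXD1 and MXD4 encode partners of MAX that repress E-box genes. MXD4 rose by 0.79 ± 0.11 in the resistant line (adjusted p = 2.48e-06) and by 0.75 ± 0.11 in the parental line (adjusted p = 4.23e-06), and MXD1 by 0.56 ± 0.12 and 0.57 ± 0.12. Already at 0.1 µM MXD4 rose by 0.62 ± 0.11 in the resistant line and 0.52 ± 0.11 in the parental line, and MXD1 by 0.47 ± 0.12 in the parental line; both parental calls at 0.1 µM ended under median scaling (0.23 for each). MXD3, of the same family, fell by 0.51 ± 0.14 in the resistant line (adjusted p = 0.0729 without the 1 µM array of replicate 1) and 0.58 ± 0.14 in the parental line. ZBTB17, a zinc finger partner of MYC, rose by 0.39 ± 0.13 in the resistant line at 1 µM, which was not called under median scaling (0.31, adjusted p = 0.132). MYCN, the neuronal relative of MYC, rose by 0.61 ± 0.14 in the parental line at 1 µM and was lower in the resistant line by 0.75 ± 0.14 at basal (log2), where its probe was above background on 2 of 3 resistant arrays. With 0.1 and 1 µM MYCN was above background on only 1 of 3 resistant arrays, so its difference there is a bound: at least 2.21-fold lower at 0.1 µM and at least 2.65-fold lower at 1 µM, set by the lowest signal above background (adjusted p = 1.87e-07 and 6.96e-09). Between the lines MXD4 was higher in the resistant line by 0.83 ± 0.11 at basal, 0.93 ± 0.11 at 0.1 µM and 0.87 ± 0.11 at 1 µM. FBXW7, part of a ubiquitin ligase that marks MYC for degradation, was lower by 0.61 ± 0.12 at basal, 0.64 ± 0.12 at 0.1 µM and 0.79 ± 0.12 at 1 µM, of which the first 2 calls ended with the mean of its probes (-0.16 and -0.18). TRRAP, a coactivator subunit bound by MYC, was lower by 0.47 ± 0.11 at 0.1 µM and 0.69 ± 0.11 at 1 µM; against basal at 1 µM it had -0.31 ± 0.11 in the resistant line and 0.45 ± 0.11 in the parental line, and the calls ended without single arrays in the resistant line (-0.21, adjusted p = 0.263, without the 1 µM array of replicate 1) and under median scaling in the parental line (0.13). Lower calls were also made for ZBTB17 at basal (-0.48 ± 0.13), MXD1 at 0.1 µM (-0.38 ± 0.12) and MGA, a further MAX partner, at 1 µM (-0.36 ± 0.12), each of which ended without at least 2 single arrays (adjusted p up to 0.0802, 0.137 and 0.104). PIM1, a kinase, was not above background on any resistant 1 µM array and was at least 1.19-fold lower there (adjusted p = 0.00953), a bound set by the lowest signal above background.

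The second comparison set the resistant line against the parental line. Under basal conditions 8 of the 36 genes were lower and 1 higher in the resistant line, with a median of -0.13, where 8.25% of all genes were lower and 7.24% higher. With 0.1 µM 6 were lower and 0 higher, with a median of -0.07, where 10.4% of all genes were lower and 9.77% higher. With 1 µM 6 were lower and 0 higher, with a median of -0.12, where 11.9% were lower and 9.32% higher. Median scaling shifted the median of all genes by -0.19, -0.09 and -0.10 and gave 26, 11 and 12 lower genes and 0 higher at each treatment, where 30.7%, 16.9% and 17.4% of all genes were lower and 2.53%, 3.79% and 4.19% higher. Relative to the median of all genes the median of the 36 was then -0.29, -0.17 and -0.15. Here too a shift that depends on brightness may remain, which was not tested.

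GAR1, NAT10 and WDR75 were lower in the resistant line at all 3 treatments. GAR1 had 12.29, 12.30 and 12.34 on resistant basal arrays, against 12.93, 12.96 and 12.73 on parental ones, and its difference was -0.56 ± 0.09 at basal (1.48-fold lower, adjusted p = 3.91e-05), -0.57 ± 0.09 at 0.1 µM and -0.50 ± 0.09 at 1 µM. Resistant and parental arrays did not overlap for GAR1 at 0.1 µM either, with 12.07, 12.10 and 12.15 against 12.58, 12.68 and 12.77, or at 1 µM, with 11.93, 12.01 and 11.96 against 12.41, 12.52 and 12.47. Its other 2 probes gave 0.10 and -0.35 at basal, and the first of these, the dimmest of the 3, gave -0.07 at 0.1 µM and -0.0057 at 1 µM (adjusted p = 0.833 and 0.988). NAT10 had 10.32, 10.41 and 10.44 on resistant basal arrays, against 10.90, 10.99 and 11.003 on parental ones (-0.57 ± 0.09, adjusted p = 2.23e-05). With 0.1 µM NAT10 had 10.37, 10.39 and 10.29 on resistant arrays, against 10.70, 10.71 and 10.63 on parental ones (-0.33 ± 0.09, adjusted p = 0.00754), a call that ended when only the groups compared were fitted (adjusted p = 0.0688). With 1 µM NAT10 had 10.08, 10.24 and 10.07 on resistant arrays, against 10.48, 10.53 and 10.48 on parental ones (-0.37 ± 0.09, adjusted p = 0.00262). WDR75 had 10.37, 10.78 and 10.78 with 0.1 µM on resistant arrays, against 11.10, 11.03 and 11.15 on parental ones (-0.45 ± 0.11, adjusted p = 0.00372). Its differences at basal (-0.33 ± 0.11) and 1 µM (-0.36 ± 0.11) were lost without any of 3 arrays (adjusted p up to 0.234, -0.23, without the parental basal array of replicate 1) and any of 2 (up to 0.0775, -0.32, without the parental 1 µM array of replicate 3).

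NHP2, a partner of GAR1, had 11.43, 11.14 and 11.32 on resistant basal arrays, against 11.60, 11.89 and 11.87 on parental ones (-0.49 ± 0.13, adjusted p = 0.0120, and up to 0.0711 without the resistant basal array of replicate 2). The other NHP2 probe gave -0.27 (adjusted p = 0.256), and the mean of its probes -0.38 (adjusted p = 0.0620). With 0.1 µM NHP2 had 11.27, 11.35 and 10.72 on resistant arrays, against 11.74, 11.68 and 12.12 on parental ones (-0.73 ± 0.13, adjusted p = 1.93e-04). With 1 µM the difference was -0.31 ± 0.13 and was not called. BOP1 had 11.28, 11.32 and 11.36 with 1 µM on resistant arrays, against 11.90, 11.87 and 12.02 on parental ones (-0.61 ± 0.09, adjusted p = 1.92e-05), and was lower at basal as well (-0.48 ± 0.09). RRS1 was lower by 0.40 ± 0.10 at basal and 0.35 ± 0.10 at 0.1 µM, the second of which ended without the parental 0.1 µM array of replicate 2 (adjusted p = 0.0754) and when only the groups compared were fitted (0.0729). LYAR was lower by 0.37 ± 0.10 at basal and 0.31 ± 0.10 at 1 µM, UTP4 by 0.29 ± 0.10 at basal, PPAN by 0.36 ± 0.12 at 0.1 µM and POLR1C by 0.31 ± 0.10 at 1 µM. The other LYAR probe gave -0.19 at basal (adjusted p = 0.311). The LYAR, UTP4, PPAN and POLR1C calls each ended without 3 or 4 of the 6 arrays, with adjusted p up to 0.227 for UTP4 without the resistant basal array of replicate 3.

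**Figure D5:**
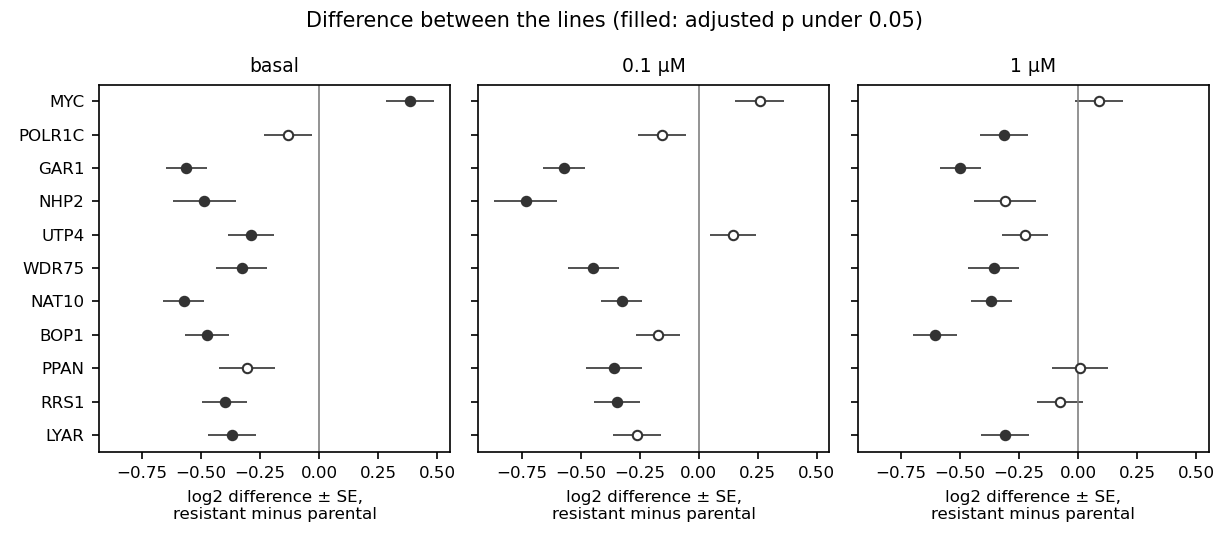
Log2 difference ± SE, resistant minus parental line, under basal conditions, with 0.1 µM and with 1 µM lapatinib, for the 11 genes called at any treatment; filled symbols have an adjusted p under 0.05. GAR1, NAT10 and WDR75 lie left of 0 and are filled in all 3 panels, and MYC lies right of 0 at basal.

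Whether the lines responded differently was tested as the difference between their changes, resistant minus parental. At 1 µM 0 of the 36 genes were lower and 0 higher in limma, with a median difference of 0.02, where 0.375% of all genes were lower and 0.311% higher; 1 gene was lower and 1 higher at an unadjusted p under 0.05, against 7.0% and 5.42% of all genes, a share that 1 of 36 does not exceed. These were IMP4 (-0.31 ± 0.14, adjusted p = 0.375) and RRS1 (0.32 ± 0.14, adjusted p = 0.310). At 0.1 µM 0 were lower and 0 higher, with a median of 0.05, where 0.00797% of all genes were lower and 0% higher. Of all genes 4.2% were lower and 4.26% higher at an unadjusted p under 0.05, and of the 36 genes 0 were lower and 3 higher, UTP4 (0.43 ± 0.14, adjusted p = 0.331), BOP1 (0.30 ± 0.13, adjusted p = 0.526) and NOP16 (0.39 ± 0.18, adjusted p = 0.555). For LYAR the difference was 0.06 ± 0.14 at 1 µM. Median scaling shifted the median difference of all genes by 0.10 at 0.1 µM and 0.09 at 1 µM, and that of the 36 was then 0.20 at each dose, with 0 of them called. That 0 genes were called does not show that the lines responded alike.

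Related lists were counted at 1 µM, where 12.1% of all genes fell and 10.9% rose in the resistant line and 13.6% fell and 14.3% rose in the parental line. Of 136 other ribosome assembly genes tested, 44 fell and 5 rose in the resistant line, with a median of -0.19, and 46 fell and 7 rose in the parental line, with a median of -0.20. Under median scaling 84 fell in the parental line, where 28.5% of all genes fell. In the resistant line the largest changes were in EMG1, a methyltransferase of 18S rRNA (-0.71 ± 0.09, adjusted p = 9.70e-07), MAK16 (-0.71 ± 0.12) and RRP15 (-0.60 ± 0.10) of large subunit assembly, and the exosome subunits EXOSC3 (-0.63 ± 0.11) and EXOSC6 (-0.63 ± 0.12). Parental cells had them in EMG1 (-0.89 ± 0.09, adjusted p = 1.72e-08), RUVBL2, an ATPase that helps to assemble snoRNPs (-0.79 ± 0.12), PAK1IP1 (-0.77 ± 0.11), and the exosome subunits EXOSC4 (-0.73 ± 0.13) and EXOSC8 (-0.73 ± 0.10). Of 66 genes of cytosolic ribosomal proteins 3 fell and 8 rose in the resistant line, with a median of 0.07, and 5 fell and 6 rose in the parental line, with a median of 0.09. Of 76 genes of mitochondrial ribosomal proteins 14 fell and 4 rose in the resistant line, with a median of -0.10, and 30 fell and 1 rose in the parental line, with a median of -0.22.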

How the data were processed

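RNA of 18 samples of SKBR3 cells was read on Illumina bead arrays, 3 per group. Per the labels, biotin-labelled cRNA was hybridised, and BeadStudio, named in the submitters' processing notes, was the software. The deposited intensities are linear probe signals not normalized between arrays; a further table of the authors, whose columns share 1 distribution, served as an alternative. The table holds 48803 probes, whereas the labels give 48697. With limma 3.58.1 in R 4.3.3, intensities were background-corrected (normexp, offset 50), quantile-normalized and log2-transformed. An array's background was taken from the mode of its log2 signals, its SD from the values under the mode, and probes past the upper 0.05 tail of that background counted as above it. Probes above background on 3 or more arrays were kept (22706), and the brightest kept probe stood for a gene. One model with a mean per group over all 18 arrays (eBayes with intensity trend) gave 11 comparisons, adjusted over all 12547 genes by Benjamini-Hochberg, with a threshold of 0.05. Arrays carry no counts, so their number limits the precision. The code was tested on simulated data. The members and gene lists were chosen with earlier results of these data known. Named were all members, every called gene of the MYC network in the comparisons with basal and between lines, and the 5 other assembly genes with the largest called changes per line at 1 µM. Promoters came from RefSeq (GRCh38.p14). Alternatives were the authors' values, no background correction, median scaling, no filter on dim probes, mean of probes, other probes, only the groups compared, no intensity trend, a replicate block and leaving out each array.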

Additional observations from a re-analysis of the deposited data

Results flagged for a closer look

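TRRAP, a coactivator subunit that binds MYC, was the gene among those named whose change at 1 µM differed between the lines by limma's test of the difference itself (-0.76 ± 0.16, resistant minus parental, adjusted p = 0.0202, 3 arrays in each of 4 groups). Its mean log2 intensity was 10.30 ± 0.23 with 1 µM and 10.61 ± 0.11 under basal conditions in the resistant line, against 10.98 ± 0.05 with 1 µM and 10.54 ± 0.03 under basal conditions in the parental line (SD). The change was -0.31 in the resistant line (adjusted p = 0.0435) and 0.45 in the parental line (adjusted p = 0.00291). The difference was no longer called under median scaling (-0.57, adjusted p = 0.131) or without any of 6 single arrays (adjusted p up to 0.0701, -0.65, without the resistant 1 µM array of replicate 1).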

How the results depend on the processing

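Of 85 calls of single member genes, 46 were kept without each array in turn and 39 ended at least once, and none turned direction on leaving out an array. Under median scaling the numbers of members lower were 24 (parental 0.1 µM against basal), 10 (resistant 0.1 µM against basal), 2 (resistant 1 against 0.1 µM), 1 (parental 1 against 0.1 µM), and 26, 11 and 12 (resistant against parental at basal, 0.1 and 1 µM), and 0 were higher in parental cells at 1 µM against basal and between lines at basal. Medians over members under median scaling were -0.30 and -0.48 (resistant 0.1 and 1 µM against basal), -0.51 and -0.64 (parental), -0.12 (resistant 1 against 0.1 µM), -0.48, -0.25 and -0.25 (resistant against parental at basal, 0.1 and 1 µM), and 0.20 and 0.20 (differences of responses at 0.1 and 1 µM). Without the intensity trend 5 were lower in parental cells at 0.1 µM and 1 at 1 against 0.1 µM. Fitting only the groups compared gave 5 lower (parental 1 against 0.1 µM), 0 (resistant 0.1 µM), 1 (resistant 1 against 0.1 µM), 3 (lines at 0.1 µM), and 11 lower and 1 higher (lines at 1 µM). With no filter 1 was lower in resistant cells at 0.1 µM, and with the mean of probes 4, and 0 higher between lines at basal. For settings other than median scaling, the share of all genes called is not given here. The same holds for median scaling of 1 against 0.1 µM. A change in those counts thus cannot be told from a general change in the number of calls. Of 30 member calls with a further kept probe, 15 were not made at 1 or more of the other probes. Other probes turned NOP2 to 0.19 (parental 1 µM) and 0.12 (resistant 1 µM) and GAR1 to 0.10 (lines at basal).

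Leaving out single arrays gave, for members lower and the median, 0 to 3 and -0.19 to -0.11 (resistant 0.1 µM), 15 to 20 and -0.39 to -0.33 (resistant 1 µM), 3 to 9 and -0.20 to -0.14 (resistant 1 against 0.1 µM), 4 to 6 and -0.24 to -0.20 (parental 0.1 µM), 17 to 18 and -0.37 to -0.33, with 0 to 1 higher (parental 1 µM), and 0 to 2 and -0.15 to -0.12 (parental 1 against 0.1 µM). Between lines they were 5 to 7 and -0.17 to -0.14, with 0 to 1 higher (basal), 5 to 9 and -0.11 to -0.034 (0.1 µM), and 3 to 6 and -0.14 to -0.078 (1 µM). Medians of the differences of responses were 0.0042 to 0.0802 at 0.1 µM and -0.0211 to 0.039 at 1 µM. Other ribosome assembly genes lower in parental cells at 1 µM numbered 84 under median scaling, where 28.5% of all genes were lower. The cause was not tested. With the replicate block 84 of 85 member calls were kept, and UTP4 between lines at basal had -0.29 (adjusted p = 0.0562, limma). Same-numbered arrays showed no large shared deviation (r from -0.20 to 0.17, over 0.1 in 3 of 45 pairs). A pairing with a small effect could look the same, so whether the numbers pair the samples is not settled. Signal over background limits POLR1A, NPM1 and UTP20.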
